A study of Homo sapiens with 15 samples.

Results

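Lipoprotein lipase (LPL) and the genes of fatty acid uptake were examined in C4-2, a castration-resistant line of prostate cancer cells that descends from LNCaP. The set held 10 genes, LPL, VLDLR, LRP8, CD36, FABP5 and SLC27A1 to SLC27A5, taken from the gene tables by symbol alone out of 20806 gene entries. All 10 were found. The study compared isogenic lines in which ATGL, the adipose triglyceride lipase encoded by PNPLA2, was deleted or put back, by poly(A) RNA-seq. KO_WT was the ATGL knockout with wild type ATGL added back. KO_S47A carried an added-back ATGL without lipolytic activity, and KO_S404A an added-back ATGL with an alanine in place of another serine. KO was the knockout with nothing added back, and Scramble was the control line with ATGL intact. All 5 lines were grown in glucose-free RPMI1640 with 5 mM glucose and 5% dialyzed serum, and each had 3 libraries. Whether a line was a clone or a pool, and the vector and promoter of each added-back ATGL, could not be read from the labels. Each genotype was thus 1 line, and the effect of a genotype and of the line that carries it cannot be told apart. The labels do not say whether the 3 libraries of a line were grown separately. The p-values therefore speak of the spread among these libraries, which may be technical.

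LPL is a secreted enzyme that splits the triglyceride of circulating lipoproteins and so frees fatty acids for the cells nearby. VLDLR and LRP8, lipoprotein receptors of the cell surface, bind and take up lipoprotein particles rich in apolipoprotein E, and CD36 is a scavenger receptor that takes up long-chain fatty acids. The SLC27 genes encode fatty acid transport proteins, several of which also join fatty acids to coenzyme A, and FABP5 is a carrier of fatty acids in the cytosol. ATGL acts inside the cell, where it releases fatty acids from stored lipid droplets.

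The libraries held 40846694 to 64345775 counts in genes. PNPLA2 was measured first, as a check of the labels. It averaged 220 ± 18.1 CPM in KO_WT, 129 ± 30.6 in KO_S47A, 413 ± 98.3 in KO_S404A, 11.3 ± 1.99 in KO and 48.9 ± 4.76 in Scramble (SD, n = 3 each; CPM are counts scaled to library size with TMM factors). The order of the lines was that of the labels, with the knockout lowest and every line with an added-back ATGL above the control, and counts per gene do not tell an added-back transcript from the cell's own. All 10 prostate luminal markers, among them KLK3, were present in every library, with a summed level of 5926 to 7822 CPM in the 4 lines derived from the knockout and 8171 to 8687 CPM in Scramble. Of the adipocyte and macrophage lists, cell types rich in LPL or CD36, ADIPOQ, CD163 and ITGAM were at 0 in all 15 libraries. In every library CFD was at 2.34 to 9.08 CPM, CSF1R at 0.0185 to 0.375 and LYZ at 0.0195 to 0.319. CD14 and PLIN1 reached 0.222 and 0.252 CPM, while PTPRC, LEP, CIDEC and CIDEA stayed at or below 0.123. Of the endothelial list PECAM1, CDH5, KDR and TEK stayed at or below 0.0750 CPM, while VWF was at 5.06 to 14.7 CPM in every library. The libraries numbered 3 stood apart from those numbered 1 and 2 in every line, which touched several of the 10 genes, and results are therefore given with and without them.

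LPL was almost absent from every line derived from the knockout. It reached 0.335, 0.335 and 0.468 CPM in KO_WT, 0.148, 0.150 and 0.867 in KO_S47A, 0.193, 0.255 and 0.488 in KO_S404A and 0.329, 0.486 and 0.262 in KO, against 11.7, 9.03 and 15.0 CPM in Scramble. All 12 knockout-derived libraries lay far below the 3 Scramble libraries, and the 4 knockout-derived lines overlapped one another. In raw counts, the KO libraries held 16, 27 and 14 LPL reads and the Scramble libraries 467, 436 and 767.

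KO held 3.02% of the Scramble level of LPL (log2 fold change −5.04, SE 0.56, 95% interval −6.25 to −3.83, edgeR adjusted p = 0.000168). In such bulk libraries fewer cells with LPL and less LPL RNA per cell cannot be told apart. The fall was the 16th lowest log2 fold change among 14246 genes tested. Of the 10 genes, 1 fell and 1 rose in KO against Scramble at an adjusted p under 0.05, beside 2.69% of all genes tested, and their median log2 fold change was 0.06 against 0.02 over all genes. The member that rose was SLC27A3.

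Putting ATGL back did not bring LPL near the Scramble level in any of the lines. Against Scramble, KO_WT had a log2 fold change of −4.96 (SE 0.57, edgeR adjusted p = 0.000218), KO_S47A −4.95 (SE 0.56, adjusted p = 0.000201) and KO_S404A −5.27 (SE 0.57, adjusted p = 0.000116). LPL stood at 3.19% of Scramble in KO_WT, 3.26% in KO_S47A and 2.62% in KO_S404A. In each of these 3 comparisons the same counts held as for the knockout itself, 1 member lower (LPL) and 1 higher (SLC27A3), where 3.47%, 3.82% and 3.11% of all genes were called for KO_WT, KO_S47A and KO_S404A. These 4 comparisons share the Scramble libraries, so their likeness is not independent. Without the third KO_S47A library, the value of LPL in KO_S47A against Scramble was −6.31 (edgeR adjusted p = 5.35e-06). The summed adipocyte list, nearly all of it CFD, was 3.45 to 9.10 CPM in the 4 knockout-derived lines and 2.46 to 4.28 CPM in Scramble. The endothelial list, nearly all of it VWF, was 5.81 to 14.8 CPM in those lines and 5.06 to 8.68 in Scramble, and the stromal list, led by COL1A1, was 16.9 to 27.4 CPM in those lines and 12.9 to 17.9 in Scramble. The blood and macrophage list summed to 0.0926 to 0.565 CPM in those lines and 0.450 to 0.475 in Scramble. The part of these shifts and of the lower luminal sum in the loss of LPL was not tested.

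**Figure D1:**
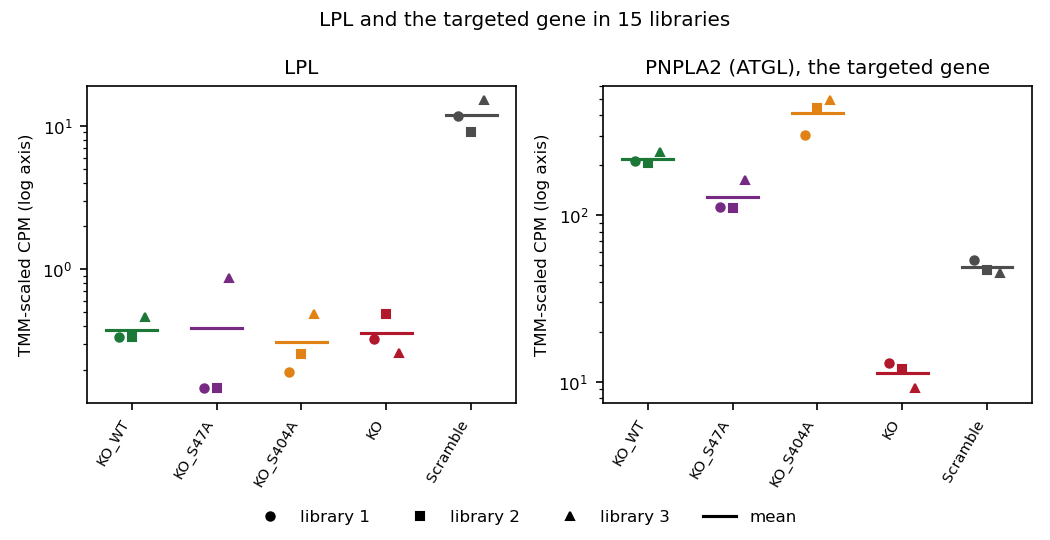
LPL (left) and PNPLA2 (right) in TMM-scaled CPM on a log axis, 3 libraries per line with symbols for the library number and a bar for the mean. LPL lies between 0.148 and 0.867 CPM in the 12 knockout-derived libraries and between 9.03 and 15.0 CPM in Scramble, while PNPLA2 is lowest in KO and above Scramble in the lines with added-back ATGL.

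Against the knockout itself, LPL did not differ beyond its spread in any line with added-back ATGL. The log2 fold change was 0.08 (95% interval −1.19 to 1.34, edgeR adjusted p = 0.963) for KO_WT, 0.09 (−1.16 to 1.34, adjusted p = 0.937) for KO_S47A and −0.23 (−1.49 to 1.03, adjusted p = 0.941) for KO_S404A. These intervals reach beyond a change of 2-fold in either direction, so a change of that size was not excluded. The bounds stay far from the change needed to reach Scramble. No member passed the edgeR test against KO in KO_WT, KO_S47A or KO_S404A, where 0.0281%, 0.00702% and 0.0211% of all genes were called; at an unadjusted p under 0.05 there were 0, 1 (LRP8) and 0 of the 10 members, beside 7.58%, 16.8% and 4.08% of all genes, and DESeq2 called no member.

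Between the lines with added-back ATGL, LPL differed by a log2 of −0.01 for KO_WT over KO_S47A (95% interval −1.28 to 1.26), −0.31 for KO_S404A over KO_WT (−1.58 to 0.97) and −0.32 for KO_S404A over KO_S47A (−1.58 to 0.94). LPL levels could therefore not be separated between the form without lipolytic activity, wild type ATGL and S404A, with edgeR adjusted p from 0.879 to 1. Of all genes, 0% were called between KO_WT and KO_S47A, 0% between KO_S404A and KO_WT and 0.00702% between KO_S404A and KO_S47A. None of the 10 members was called by edgeR or DESeq2 in these comparisons, and 0 of them had an unadjusted edgeR p under 0.05, beside 2.17%, 8.7% and 6.59% of all genes.

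The third KO_S47A library carried that line's mean. It held 43 LPL reads, against 8 in each of the other KO_S47A libraries. In the libraries numbered 1 and 2 only, LPL averaged 0.149 CPM in KO_S47A and 0.408 CPM in KO, a log2 fold change of −1.45 (SE 0.40, edgeR adjusted p = 0.0255). That call rests on 2 libraries a line and few reads, and 21.6% of all genes were called in the same comparison. In those libraries LPL stayed lower in all 4 knockout-derived lines against Scramble, with log2 fold changes of −4.94 in KO_WT, −6.10 in KO_S47A, −5.51 in KO_S404A and −4.65 in KO.

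SLC27A3 moved the other way. It encodes a member of the fatty acid transport family with acyl-CoA synthetase activity. Its level was 6.17, 5.21 and 8.30 CPM in KO_WT, 6.67, 5.23 and 8.80 in KO_S47A, 8.04, 5.48 and 8.41 in KO_S404A and 7.34, 6.45 and 6.55 in KO, against 2.55, 3.00 and 4.15 CPM in Scramble. Every knockout-derived library lay above every Scramble library, and the 4 knockout-derived lines overlapped.

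The rise in KO was 2.09-fold (log2 fold change 1.06, SE 0.25, 95% interval 0.53 to 1.59, edgeR adjusted p = 0.0351). SLC27A3 was also higher than in Scramble in KO_WT by a log2 of 1.02 (SE 0.25, adjusted p = 0.0363), in KO_S47A by 1.09 (SE 0.25, adjusted p = 0.0257) and in KO_S404A by 1.17 (SE 0.25, adjusted p = 0.0189). Against KO it was −0.05 (95% interval −0.56 to 0.47) in KO_WT, 0.03 (−0.49 to 0.54) in KO_S47A and 0.11 (−0.41 to 0.62) in KO_S404A, none of them called. Added-back ATGL of any form thus left SLC27A3 without a detectable change from the knockout.

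In the edgeR fit without a block, the calls of SLC27A3 lay near the threshold. In KO against Scramble the edgeR adjusted p was 0.177 without Scramble library 1 and 0.158 without Scramble library 2, and it was 0.120, 0.0906 and 0.0878 without KO libraries 1, 2 and 3. The calls in the 3 lines with added-back ATGL ended likewise without Scramble library 1 or 2 (adjusted p 0.0935 to 0.168) and without the line's own library 1 or 3 (0.0558 to 0.118). The log2 fold change itself stayed between 0.81 and 1.39 in all of these fits. SLC27A3 was called in all 4 comparisons in the libraries numbered 1 and 2 only, with edgeR adjusted p from 0.00667 to 0.0238. All 4 calls also held by DESeq2 (adjusted p 0.000455 to 0.0034) and with the library number as a block (edgeR adjusted p 0.000427 to 0.00126). Fits of 2 lines only called it in KO (edgeR adjusted p = 0.021) and not in the lines with added-back ATGL.

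The promoter of SLC27A3 is shown because it is the member that was higher in all 4 knockout-derived lines. The window is the RefSeq one (GRCh38.p14), 250 bases before to 50 bases after the gene's start, at chr1:153775157-153775456 on the plus strand, with capitals for each GC box, GGGCGG on either strand (CCGCCC as read here), the motif of SP-family factors.
SLC27A3: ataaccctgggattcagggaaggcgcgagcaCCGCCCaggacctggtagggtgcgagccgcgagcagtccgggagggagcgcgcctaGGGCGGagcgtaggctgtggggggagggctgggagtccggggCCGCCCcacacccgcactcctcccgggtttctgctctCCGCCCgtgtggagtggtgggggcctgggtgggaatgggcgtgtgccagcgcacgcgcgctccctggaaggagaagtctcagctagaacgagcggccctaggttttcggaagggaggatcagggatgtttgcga
It held 4 GC boxes at a GC content of 68.7%. The box was found in 44.95% of 35116 such windows, whose median GC content was 58.7%. Neither the PPAR and RXR direct repeat AGGTCANAGGTCA (0.0228% of windows) nor the sterol regulatory element TCACNCCAC (1.13%) occurred in it on either strand, and no more than these letters in this window was examined.

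Neither change extended evenly along the chromosome. Of the 10 tested genes nearest to LPL in RefSeq order, 5 on each side, 1 was called in KO against Scramble, CSGALNACT1, which makes chondroitin sulfate chains (6.80 CPM in KO and 14.1 in Scramble, log2 fold change −1.05, edgeR adjusted p = 0.000777). Of the 10 around SLC27A3, 1 was called, NPR1, a natriuretic peptide receptor (0.393 CPM in KO and 0.0692 in Scramble, log2 fold change 2.43, adjusted p = 0.0330). In this comparison 2.69% of all genes tested were called. The other neighbours of LPL had log2 fold changes from −0.18 to 0.52.

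The genes whose log2 levels followed LPL most closely over the 15 libraries were TRPM8, a cold-gated ion channel (Pearson r = 0.968), PVRL3, a cell adhesion molecule (0.967), and SPON2, a secreted matrix protein (0.962), among 12388 genes compared. TRPM8 averaged 34.8 CPM in KO and 107 in Scramble. For SLC27A3 the closest were SLC47A1, a cation exporter (r = 0.922), COL4A5, a basement membrane collagen chain (0.908), and KIRREL, an adhesion protein (0.895). These values describe 15 libraries that share 5 lines, and such a likeness is largely that of the Scramble line against the rest.

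**Figure D2:**
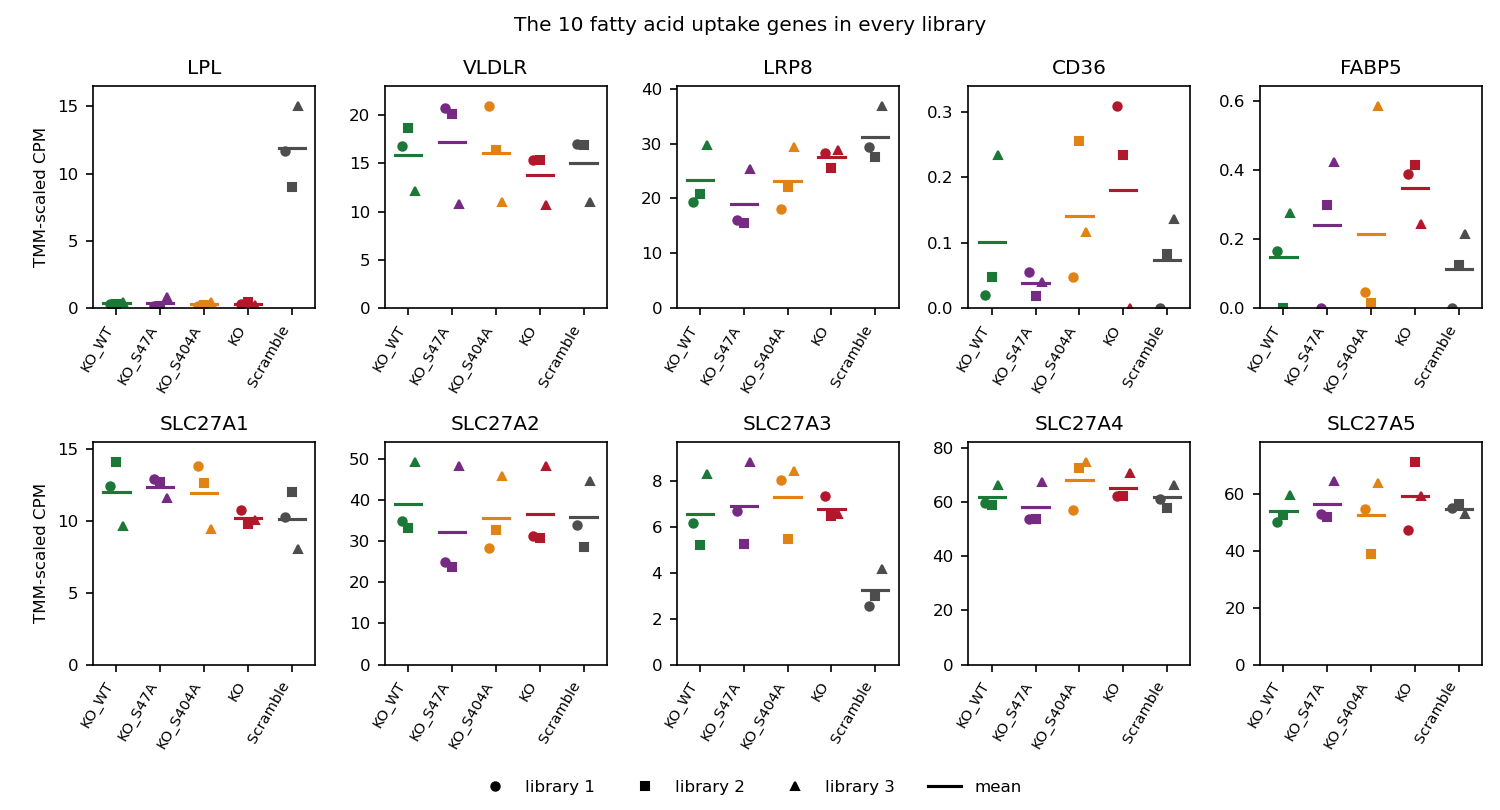
The 10 genes in TMM-scaled CPM on linear axes from 0, 3 libraries per line with symbols for the library number and a bar for the mean. LPL is high and SLC27A3 low in Scramble alone, the third libraries are lowest for VLDLR and highest for SLC27A2 in every line, and CD36 and FABP5 stay below 0.6 CPM.

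The lipoprotein receptors VLDLR and LRP8 kept moderate levels in all lines. LRP8, the apolipoprotein E receptor 2, was at 19.4, 20.7 and 29.8 CPM in KO_WT, 16.1, 15.5 and 25.4 in KO_S47A, 18.1, 22.1 and 29.3 in KO_S404A and 28.2, 25.6 and 28.9 in KO, against 29.3, 27.6 and 36.8 CPM in Scramble. KO_S47A lay below both KO and Scramble in every library, though the library numbered 3 came close to KO, while the other lines overlapped Scramble. The share of all genes that separate KO_S47A from those lines in this way was not counted.

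The order of the LRP8 means was KO_S47A 19.0 ± 5.51, KO_S404A 23.2 ± 5.68, KO_WT 23.3 ± 5.63, KO 27.6 ± 1.76 and Scramble 31.2 ± 4.88 CPM (SD, n = 3 each). In the fit with 1 mean per line and no block, no neighbours in this order, nor any other pair, passed the edgeR test. The widest difference, KO_S47A against Scramble, was −0.72 (SE 0.22, adjusted p = 0.0952), and KO_S47A against KO was −0.54 (SE 0.22, adjusted p = 0.279). KO_WT and KO_S404A against Scramble gave −0.42 (adjusted p = 0.409) and −0.43 (adjusted p = 0.379), and KO against Scramble −0.18 (adjusted p = 0.837).

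With the library number as a replicate block, over the same 15 libraries, LRP8 was called. KO_S47A was lower than KO by a log2 of −0.57 (SE 0.12, edgeR adjusted p = 0.00573), beside 22.1% of all genes called. Against Scramble the blocked value was −0.44 in KO_WT (adjusted p = 0.0258), −0.74 in KO_S47A (0.00068) and −0.44 in KO_S404A (0.0227), beside 10%, 19.5% and 10.7% of all genes, and −0.16 in KO (0.433), beside 8.29%. LPL and SLC27A3 were called against Scramble in all 4 lines under the block too, and neither was called against KO.

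Without the libraries numbered 3, LRP8 was called in 4 of these comparisons. It averaged 15.8 CPM in KO_S47A and 26.9 in KO, a log2 fold change of −0.77 (SE 0.12, edgeR adjusted p = 0.00226). Against Scramble, at 28.5 CPM, it was lower by a log2 of −0.85 in KO_S47A (adjusted p = 0.00159), −0.50 in KO_WT (adjusted p = 0.0331) and −0.50 in KO_S404A (adjusted p = 0.0288), while KO against Scramble was −0.08 (adjusted p = 0.734). Leaving out the third KO_S47A library alone also brought the call against Scramble (log2 fold change −0.99, adjusted p = 0.0186). The log2 fold change of LRP8 in the lines with added-back ATGL against KO was −0.24 in KO_WT and −0.25 in KO_S404A over all libraries, neither of them called.

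In the libraries numbered 1 and 2 only, 3 members were called in KO_WT against Scramble, 4 in KO_S47A, 3 in KO_S404A and 2 in KO, beside 5.11%, 15%, 6.84% and 5.37% of 14352 genes. LPL and SLC27A3 were called in all 4, LRP8 in the lines with added-back ATGL, and SLC27A2 in KO_S47A alone, with an adjusted p just below the threshold. Against KO, 4 members were called in KO_S47A (LPL, VLDLR, LRP8 and SLC27A2), beside 21.6% of all genes. By edgeR 0 members were called in KO_WT, beside 0.3% of all genes, and 0 in KO_S404A, beside 2.81%. At an unadjusted p under 0.05 there were 3 of the 10 members in KO_WT and 5 in KO_S404A, beside 25% and 19.6% of all genes.

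VLDLR, the very low density lipoprotein receptor, followed the library number more than the line. It was at 16.8, 18.6 and 12.1 CPM in KO_WT, 20.7, 20.1 and 10.8 in KO_S47A, 20.9, 16.4 and 11.0 in KO_S404A, 15.3, 15.4 and 10.7 in KO and 17.0, 16.9 and 11.0 in Scramble. The third library was the lowest of its line in all 5 lines, and the ranges of all lines overlapped. Between lines the log2 fold changes of VLDLR ran from −0.12 to 0.32, none of them called (lowest edgeR adjusted p 0.527). In the libraries numbered 1 and 2 only, KO_S47A was higher than KO by a log2 of 0.41 (20.4 against 15.4 CPM, adjusted p = 0.0395), and with all libraries the same value was 0.32.

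SLC27A2, which encodes a very long chain acyl-CoA synthetase of the peroxisome and endoplasmic reticulum, showed the opposite order. It was at 34.8, 33.2 and 49.1 CPM in KO_WT, 24.8, 23.7 and 48.2 in KO_S47A, 28.4, 32.7 and 45.9 in KO_S404A, 31.2, 30.7 and 48.1 in KO and 34.0, 28.6 and 44.6 in Scramble. The third library was the highest of its line in all 5 lines. Between lines the values ran from −0.18 to 0.27 on the log2 scale, none of them called (lowest edgeR adjusted p 0.720). The value for KO_S47A against KO was −0.18 with all libraries and −0.35 in the libraries numbered 1 and 2 only (24.3 against 31.0 CPM, adjusted p = 0.0460), and for KO_S47A against Scramble it was −0.15 and −0.37.

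Fitted with the line as a term, the libraries numbered 3 were lower than those numbered 1 and 2 by a log2 of −0.67 for VLDLR (SE 0.08, edgeR adjusted p = 6.5e-06) and higher by 0.65 for SLC27A2 (SE 0.07, adjusted p = 4.08e-06). LPL (0.77, adjusted p = 0.0326), LRP8 (0.46), SLC27A3 (0.39) and SLC27A4 (0.21) were also higher, and SLC27A1 (−0.31) was lower. These were 7 of the 10 members, beside 45.3% of all genes tested. In KO alone the third library went the other way for LPL (log2 −0.59) and SLC27A3 (−0.07), and LPL ran up to 2.47 in KO_S47A on few reads. The third library lay below both others in all 5 lines in 15.4% of genes and above both in 16.3%. What the library number stands for is not given in the labels.

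Genes of stress and growth moved with the library number as well. All 12 genes of an ATF4 response list (ASNS, TRIB3 and others of the response to scarce amino acids) fell in the third libraries, with a median log2 fold change of −2.0. All 12 genes of a proliferation list (MKI67, TOP2A and others) rose, with a median of 0.92. Of all genes tested, 23.13% were called lower in the third libraries and 22.15% higher. Both lists were chosen with earlier results of these data known, so their full counts are not an independent result. The part of these states in the levels of VLDLR and SLC27A2 was not tested. Every line has a library of each number, so the lines are compared across the same numbers.

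**Figure D3:**
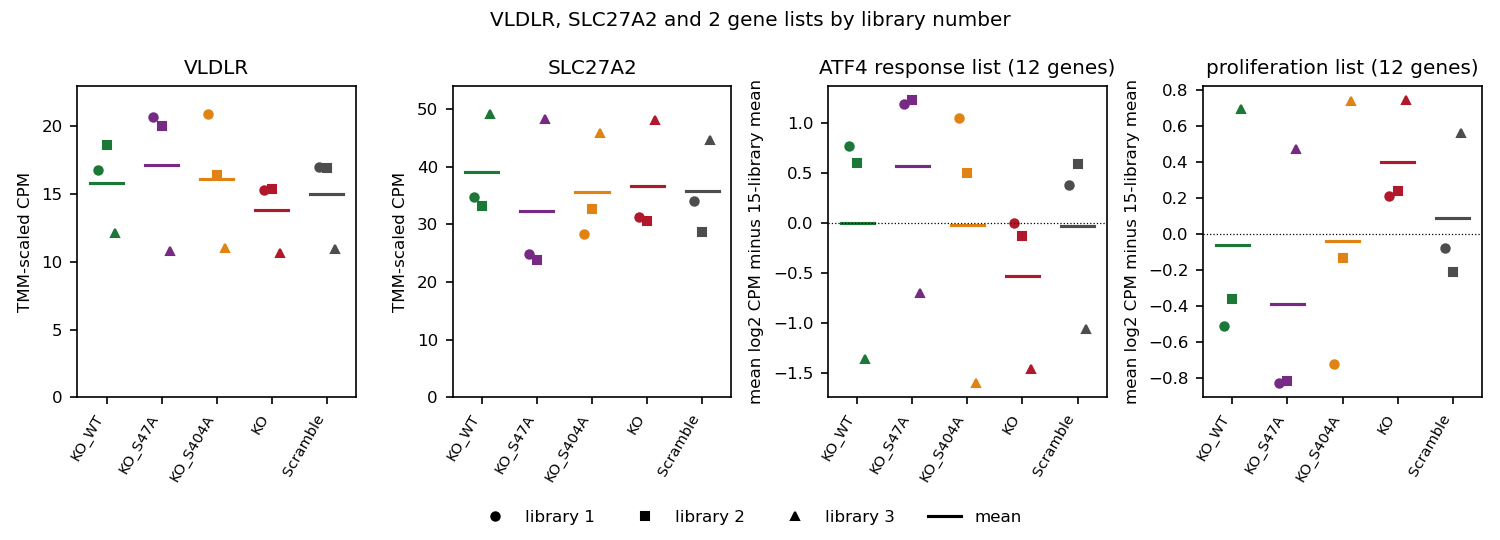
VLDLR and SLC27A2 in TMM-scaled CPM, and the mean log2 CPM of 12 ATF4 response and 12 proliferation genes relative to the mean over 15 libraries, by line with symbols for the library number and a bar for the mean. The third libraries (triangles) lie at 10.7 to 12.1 CPM for VLDLR and at 44.6 to 49.1 CPM for SLC27A2, apart from all others.

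The promoters of VLDLR and SLC27A2 are shown as those of the pair with opposite shifts between library numbers. Both are RefSeq windows of GRCh38.p14 on the plus strand, chr9:2621537-2621836 for VLDLR and chr15:50181946-50182245 for SLC27A2, with GC boxes in capitals on either strand and overlapping boxes as 1 run.
VLDLR: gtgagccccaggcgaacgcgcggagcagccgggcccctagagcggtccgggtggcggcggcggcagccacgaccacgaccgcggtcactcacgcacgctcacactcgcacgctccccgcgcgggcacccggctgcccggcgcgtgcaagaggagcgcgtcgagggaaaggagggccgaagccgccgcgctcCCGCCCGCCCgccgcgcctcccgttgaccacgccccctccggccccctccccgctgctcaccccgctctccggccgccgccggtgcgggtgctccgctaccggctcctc
SLC27A2: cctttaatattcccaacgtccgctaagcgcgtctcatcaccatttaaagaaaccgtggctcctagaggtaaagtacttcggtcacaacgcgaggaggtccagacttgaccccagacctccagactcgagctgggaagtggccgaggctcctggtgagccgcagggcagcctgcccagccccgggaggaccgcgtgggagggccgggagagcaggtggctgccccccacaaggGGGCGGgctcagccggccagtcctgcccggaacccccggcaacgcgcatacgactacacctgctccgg
VLDLR held 2 overlapping GC boxes at a GC content of 79.0%, and SLC27A2 held 1 at 65.0%. The ATF4 and C/EBP composite element TGATGNAA, found in 3.62% of all windows, and the E-box CACGTG, in 7.26%, occurred in neither on either strand.

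SLC27A1, SLC27A4 and SLC27A5 were not called between any pair of lines under any setting run. SLC27A4, an acyl-CoA synthetase of the endoplasmic reticulum, was at 59.6, 59.0 and 66.3 CPM in KO_WT, 53.8, 53.5 and 67.2 in KO_S47A, 57.1, 72.4 and 74.5 in KO_S404A, 62.3, 62.3 and 70.7 in KO and 61.2, 57.9 and 66.2 in Scramble. SLC27A5, known in liver as the bile acyl-CoA synthetase, ranged from 39.0 to 71.2 CPM, with means of 54.3 ± 4.78 in KO_WT, 56.7 ± 7.12 in KO_S47A, 52.6 ± 12.7 in KO_S404A, 59.4 ± 11.9 in KO and 54.9 ± 1.80 in Scramble (SD, n = 3 each). SLC27A1, the transporter known from muscle and fat, averaged 12.0 ± 2.25 CPM in KO_WT, 12.4 ± 0.716 in KO_S47A, 12.0 ± 2.27 in KO_S404A, 10.2 ± 0.492 in KO and 10.1 ± 1.99 in Scramble.

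All lines overlapped in SLC27A4 and SLC27A5. In SLC27A1 every KO_S47A library (11.6 to 12.9 CPM) lay above every KO library (9.84 to 10.8 CPM). The unadjusted edgeR p was 0.139 there, in a comparison where 16.8% of all genes had one under 0.05. How many of all genes separate these lines without overlap was not counted. Over the 3 genes and 10 comparisons, the 30 log2 fold changes lay between −0.18 and 0.29 (lowest edgeR adjusted p 0.386). For KO against Scramble the 95% interval was −0.36 to 0.40 for SLC27A1, −0.18 to 0.33 for SLC27A4 and −0.26 to 0.48 for SLC27A5, so that changes of 2-fold lay outside all 3.

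CD36 and FABP5 were near the limit of detection. CD36 held 1, 2 and 11 reads in KO_WT, 3, 1 and 2 in KO_S47A, 3, 17 and 6 in KO_S404A, 15, 13 and 0 in KO and 0, 4 and 7 in Scramble. FABP5 held 8, 0 and 13 reads in KO_WT, 0, 16 and 21 in KO_S47A, 3, 1 and 30 in KO_S404A, 19, 23 and 13 in KO and 0, 6 and 11 in Scramble. Reads of both genes varied between the libraries of a line, and neither gene was called in any comparison under any setting. For FABP5, every KO library (0.243 to 0.414 CPM) lay above every Scramble library (0 to 0.215 CPM). That gap rests on few reads and was not called (edgeR adjusted p = 0.724). The share of all genes with such a gap was not counted.

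A count of 0 allows up to 3 counts, which is 0.0734 CPM in the first Scramble library, for counting error alone. RefSeq names 15 pseudogenes of FABP5 (FABP5P), so reads could be shared between them and FABP5 and left out of a gene's count. The low FABP5 level is uncertain for that reason. FABP5P3 held 52 reads in total over all libraries. SLC27A6, the remaining gene of the transporter family, was at 0 in 13 of 15 libraries.

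Per unit of gene length, in the authors' FPKM averaged over the 15 libraries, the order was SLC27A4 17.7, SLC27A5 11.6, SLC27A2 10.8, VLDLR 3.54, LRP8 3.06, SLC27A3 2.11, SLC27A1 1.23, LPL 0.571, FABP5 0.267 and CD36 0.0152. In Scramble, LPL reached 2.54 ± 0.697 FPKM (SD, n = 3), above the 1.07 ± 0.304 of SLC27A3 there. In KO the order of these genes was the reverse, with LPL at 0.0807 ± 0.0250 and SLC27A3 at 2.37 ± 0.228 FPKM.

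**Figure D4:**
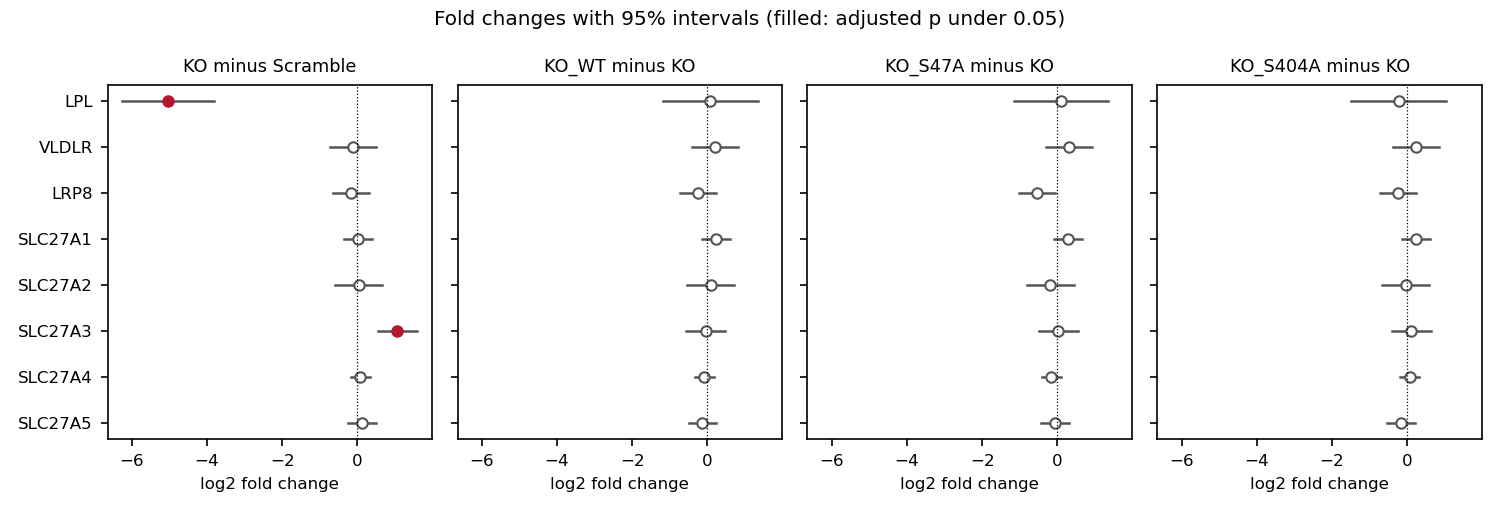
Log2 fold changes (points) with 95% intervals (lines) of the 8 members with more than a few reads, for KO minus Scramble and for each line with added-back ATGL minus KO; filled points passed an adjusted p under 0.05. LPL (−5.04) and SLC27A3 (1.06) are called in KO minus Scramble, and no member is called against KO.

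The wider list around these genes held 83 further genes by role. Of these 59 were tested, and 0 rose and 1 fell in KO against Scramble (edgeR), which is 1.69% beside 2.69% of all genes. At an unadjusted p under 0.05 there were 11 of 59, or 18.6% beside 12.8% of all genes, and the median log2 fold change was −0.05 against 0.02 over all genes. SORL1, a sorting receptor that also binds LPL, was the gene that fell, with 17.3 ± 1.83 CPM in KO and 30.3 ± 6.18 in Scramble (log2 fold change −0.81, adjusted p = 0.0373). None of 18 lipase partners was called, and 6 of them (33.3%, beside 12.8% of all genes) had an unadjusted p under 0.05, among them SDC2, a heparan sulfate proteoglycan (7.13 ± 1.36 CPM in KO, 14.1 ± 2.13 in Scramble, adjusted p = 0.101).

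LMF1, which LPL needs to fold, was at 5.22 ± 0.655 CPM in KO and 6.41 ± 1.39 in Scramble, and its log2 fold change of −0.29 was not called (adjusted p = 0.537). FFAR2, a receptor for short-chain fatty acids, had the widest difference of the list, with 0.614 ± 0.391 CPM in KO and 3.27 ± 0.803 in Scramble (−2.41, SE 0.74), and was not called (adjusted p = 0.124). ANGPTL4, an inhibitor of LPL, was at 0.179 ± 0.122 CPM in KO and 0.323 ± 0.264 in Scramble. Of the 7 acyl-CoA synthetases tested, none was called, the most abundant being ACSL3 with 655 ± 96.5 CPM in KO and 532 ± 115 in Scramble, followed by ACSL1 with 377 ± 64.4 CPM in KO and 467 ± 75.7 in Scramble.

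In the lines with added-back ATGL, LIPH, a membrane-associated phospholipase of the same gene family as LPL, was higher than in Scramble. It averaged 2.71 ± 0.447 CPM in KO_WT, 2.51 ± 0.681 in KO_S47A and 2.75 ± 1.02 in KO_S404A, against 1.07 ± 0.249 CPM in Scramble (SD, n = 3 each), with log2 fold changes of 1.35, 1.23 and 1.37 in that order of lines (edgeR adjusted p 0.0192, 0.0304 and 0.0196). In KO it averaged 1.81 ± 0.160 CPM, which was not called against Scramble (0.76, adjusted p = 0.252). KO_S47A also had ACSL5 higher (1.32, edgeR adjusted p = 0.0447) and SDC2 lower (−1.40, adjusted p = 0.0153) than Scramble. Neither was called in the other lines, though their means lay on the same side. ACSL5 averaged 0.81 CPM in KO_WT, 1.11 in KO_S47A, 0.99 in KO_S404A, 0.89 in KO and 0.44 in Scramble. SDC2 averaged 7.29, 5.34, 7.29, 7.13 and 14.1 CPM in the same order. The share of the 59 called against Scramble was 1.69% in KO_WT, 5.08% in KO_S47A and 1.69% in KO_S404A. Of all genes it was 3.47%, 3.82% and 3.11%. None of the 59 was called by edgeR against KO in KO_WT, KO_S47A or KO_S404A, with 1, 7 and 4 at an unadjusted p under 0.05, or 1.69%, 11.9% and 6.78% beside 7.58%, 16.8% and 4.08% of all genes.

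**Figure D5:**
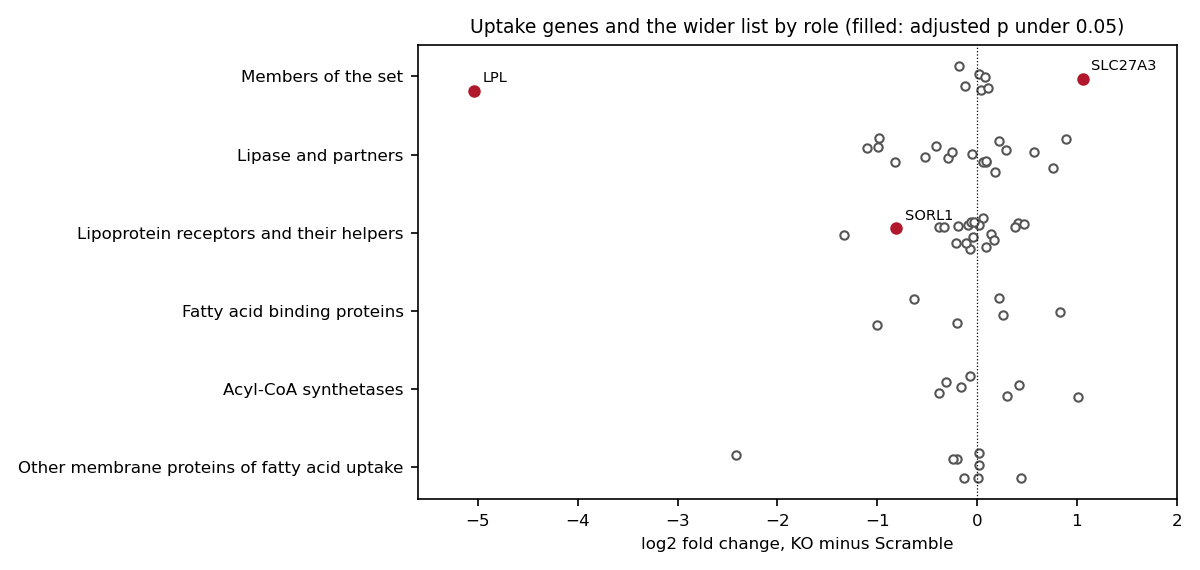
Log2 fold changes of KO minus Scramble for 8 members and the 59 tested genes of the wider list, 1 point per gene, by role; filled points passed an adjusted p under 0.05 and are named. LPL lies at −5.04, SLC27A3 at 1.06 and SORL1 at −0.81, and the other genes were not called.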

How the data were processed

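Poly(A) RNA from 15 C4-2 libraries (5 lines, 3 each) was sequenced from a directional kit, per the labels' protocols. The authors deposited, for each library, a raw count per gene, and beside it a length-scaled value that was identified here as FPKM, since counts, library totals and a fixed length per gene reproduce it within a relative 1.45e-13. STAR and CASAVA are named in the submitters' processing notes. Sources used here name no build or annotation, nor whether reads were counted by strand. Reads in no gene (13.2 to 20.6% of the total) were left out, and shared reads of gene copies or overlapping genes may be among them.

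Counts of 14246 genes that passed filterByExpr were fitted with edgeR 4.0.16 (R 4.3.3; TMM, quasi-likelihood test, 1 mean per line, 10 residual degrees of freedom) for 10 comparisons. P-values were adjusted by Benjamini-Hochberg within each, and genes were called at an adjusted p under 0.05. CD36 and FABP5 passed the filter through a few libraries. CPM are TMM-scaled, and FPKM served only to set levels of different genes side by side. Levels that were followed over libraries used log2 CPM with a prior count of 0.5, in genes of at least 1 CPM. Alternatives were RLE size factors, no filter, DESeq2 1.42.0, fits of 2 lines only, a replicate block, libraries numbered 1 and 2 only, and each library left out in turn. Promoter windows of RefSeq (GRCh38.p14) were used for 8 of the 10 genes; those of LPL and FABP5 were not analysed here. The members and gene lists were chosen with earlier results of these data known. Named genes were all members, genes of the lists that were called, and the 3 genes most like each called member. LMF1, FFAR2, ANGPTL4, ACSL1, ACSL3 and the uncalled SDC2, LIPH and ACSL5 values were chosen after their values were seen.

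No library repeated another. The labels give the replicate numbers no meaning, and the fit without a block is the one reported unless said otherwise. Same-number libraries had correlated deviations over 0.1 in all 3 pairs of 8 of the 10 comparisons, and not in KO_S404A against KO or against Scramble (lowest 0.029); blocked values are given where they change a call.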

Additional observations from a re-analysis of the deposited data

How the results depend on the processing

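The direction and call of LPL against Scramble held in all 4 lines under every alternative run. Of 324 recomputed fold changes of LPL, SLC27A3, LRP8, VLDLR and SLC27A2, 261 kept direction and side of the threshold and 20 (all SLC27A3) were no longer called. A further 13 were newly called with the same sign, and 30 changed sign, none of them from a called value. Among the sign changes, LPL in KO_S47A against KO was called in the libraries numbered 1 and 2 only (−1.45, edgeR adjusted p = 0.0255). Fits of 2 lines only called 1 member, LPL, against Scramble in KO_WT, KO_S47A and KO_S404A (SLC27A3 adjusted p 0.0911, 0.0914 and 0.102), with fewer samples to estimate the spread. Leaving out 1 library gave 1 to 2 members for each comparison with Scramble. DESeq2 called LRP8 in KO_S47A against Scramble (adjusted p = 0.0297). In the libraries numbered 1 and 2 only, 4 members were called for KO_S47A against KO and 4 against Scramble.

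Under the replicate block, 1 member was called for KO_S47A against KO (LRP8, log2 fold change −0.57, adjusted p = 0.00573), and LRP8 was added against Scramble in the 3 lines with added-back ATGL. The block changed no other call of a member. By the block, LPL was −0.06 and SLC27A3 −0.011 in KO_S47A against KO, and LPL 0.082 in KO_WT against KO_S47A. Of 15 libraries, 9 correlated best with their own number. In the libraries numbered 1 and 2 only, values of opposite sign were LPL against KO in KO_WT (−0.29) and KO_S47A (−1.45), SLC27A3 against KO in KO_S47A (−0.21) and KO_S404A (−0.03), and LPL in KO_WT (1.16) and KO_S404A (0.58) against KO_S47A. The cause was not tested.

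With 1 library left out, values ran as follows. LPL lay between −0.11 and 0.36 in KO_WT against KO, −1.25 and 0.50 in KO_S47A against KO, −0.68 and 0.058 in KO_S404A against KO, −0.41 and 1.34 in KO_WT against KO_S47A, and −0.76 and 1.01 in KO_S404A against KO_S47A. SLC27A3 lay between −0.25 and 0.11 for KO_WT against KO, −0.18 and 0.20 for KO_S47A against KO, and −0.005 and 0.28 for KO_S404A against KO. SLC27A2 lay between −0.59 and 0.06 in KO_S47A against KO and −0.57 and 0.044 against Scramble.

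Counts of all genes called moved more. For KO against Scramble there were 383, with 693 by DESeq2, 1181 with the block, 770 in libraries numbered 1 and 2 and 205 to 291 with 1 library left out. For KO_S47A against KO there was 1, with 33 by DESeq2, 3150 with the block, 3098 in libraries numbered 1 and 2 and 1 to 15 with 1 left out. Against Scramble, KO_WT had 494 (DESeq2 868, block 1429, 2 lines 344, 1 left out 240 to 440), KO_S47A 544 (1093, 2783, 296, 234 to 984) and KO_S404A 443 (894, 1522, 135, 240 to 374).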
